A study of Rattus norvegicus with 21 samples.

Results

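Potassium channels set the resting potential of a cell and end each burst of firing, and in endocrine pituitary cells they decide how much calcium enters and how much hormone is released. The genes described here are all those on the Affymetrix Rat Gene 1.0 ST array whose only gene symbol in the platform annotation begins with Kcn, the prefix shared by the pore-forming subunits and by most of their auxiliary subunits. They number 83 genes of 14506 genes with 1 symbol. Each gene is represented by 1 probe set, the brightest on average over the 21 arrays, and Kcnip1 and Kcnip2 were the only ones with more than 1 to choose from.

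The tissue came from MENX rats, which carry a homozygous mutation of p27Kip1 (gene symbol Cdkn1b, written Cdknb1 in the labels, a brake on the cell cycle) and develop multifocal adenomas of the anterior pituitary, and from wild-type rats. Both groups were of the mixed Sprague–Dawley white eye/Wistar–Kyoto strain. The adenomas, 16 macrodissected lesions, came from homozygous mutants aged 7 to 12 months, and lesions that shared a sample number were averaged to 9 adenoma values, 6 from females and 3 from males. The 5 normal pituitaries came from wild-type rats aged 6 months, 2 female and 3 male. Age and genotype cannot be told apart between the groups, because every mutant was older than every wild-type rat. The labels call the samples biological replicates, and reading a shared sample number as 1 rat is an assumption. The study's text counts more mutant rats and gives them an age of 7 or 8 months, younger than most ages in the labels. The number of rats and the ages used here thus rest on the labels alone.

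Values are log2 RMA signals, and a difference of 1 on this scale is a doubling of signal. The mRNA of the mutated gene, Cdkn1b, was 9.23 ± 0.17 in adenomas and 8.91 ± 0.19 in wild-type pituitaries (SD, n = 9 and 5), a log2 fold change of 0.33 (limma, adjusted p = 0.0324), which says nothing about the mutation itself. Of 4 measured gonadotroph genes, 2 rose and 2 fell (summed level 14.06 to 14.30 in adenomas, 12.88 to 14.04 in wild type). Cga, the alpha subunit shared by the gonadotropins and thyrotropin, was higher in all 9 adenomas than in all wild-type pituitaries (log2 fold change 0.91, adjusted p = 1.09e-04). So was Gnrhr, the receptor of gonadotropin-releasing hormone (1.40, adjusted p = 3.60e-03). The gonadotropin beta subunits Lhb and Fshb fell by 2.24 and 2.38. Markers of other cells also moved. Of 6 genes of the PIT-1 lineage (somatotrophs, lactotrophs and thyrotrophs) 4 fell, namely Gh1, Ghrhr, Pou1f1 and Tshb. The lactotroph gene Prl and the receptor gene Trhr had log2 fold changes of 0.08 and 0.53 and did not pass. Prl read 13.77 in adenomas and 13.69 in wild type, near the highest value on the arrays (14.09), so a difference in its RNA may not show. The summed level of the 6, made up mostly of Prl and Gh1, was 14.12 to 14.90 in adenomas and 15.06 to 15.28 in wild-type pituitaries. Of 4 measured genes of corticotrophs and melanotrophs 3 fell (9.93 to 11.76 in adenomas, 11.64 to 12.72 in wild type). Of 6 pericyte genes 5 rose (10.76 to 11.76 in adenomas, 10.10 to 11.31 in wild type), and of 6 macrophage genes 3 rose (9.39 to 10.18 in adenomas, 9.01 to 9.57 in wild type). Of the remaining lists, 4 of 6 folliculostellate genes fell and 1 rose (9.33 to 10.00 in adenomas, 9.81 to 11.47 in wild type), 3 of 6 posterior lobe glia genes fell and 1 rose, 1 of 7 neuron genes fell and 2 of 6 endothelial genes rose. Their part in the potassium channel differences was not tested.

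Of the 83 potassium channel genes, 11 were higher and 15 lower in adenomas at an adjusted p under 0.05 (limma, Benjamini-Hochberg over all 29214 probe sets). Those are 13.3% and 18.1% of the members. The background was 12.1% higher and 9.7% lower among genes with 1 symbol, and 8.49% higher and 9.06% lower among all probe sets. Thus the share of raised members lay close to the background and the share of lowered members lay above it. A fold over 2 was reached by 2 raised members, Kcnh1 and Kcne3, where 2.14% of all genes did so. It was reached by 8 lowered members, namely Kcnk2, Kcnj3, Kcnt2, Kcnj6, Kcnj5, Kcnd3, Kcnh7 and Kcnh8, where 1.14% of all genes did so. All 9 adenomas lay above all 5 wild-type pituitaries for 5 members (Kcne3, Kcnab3, Kcng3, Kcns2 and Kcnq1, background 3.91%) and below them for 5 others (Kcnk2, Kcnh7, Kcnj3, Kcnq3 and Kcnd3, background 2.39%). The median size of the log2 fold change was 0.25 over the members and 0.17 over all genes with 1 symbol. In bulk tissue such as this, fewer cells of a type and less RNA per cell cannot be told apart. Of the members, 38 lay below 6.43, the median over all probe sets, in both groups, where RMA understates differences, and 8 of these were among the 26 that passed. Of all 14506 genes with 1 symbol, 5379 lay below it in both groups.

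**Figure D1:**
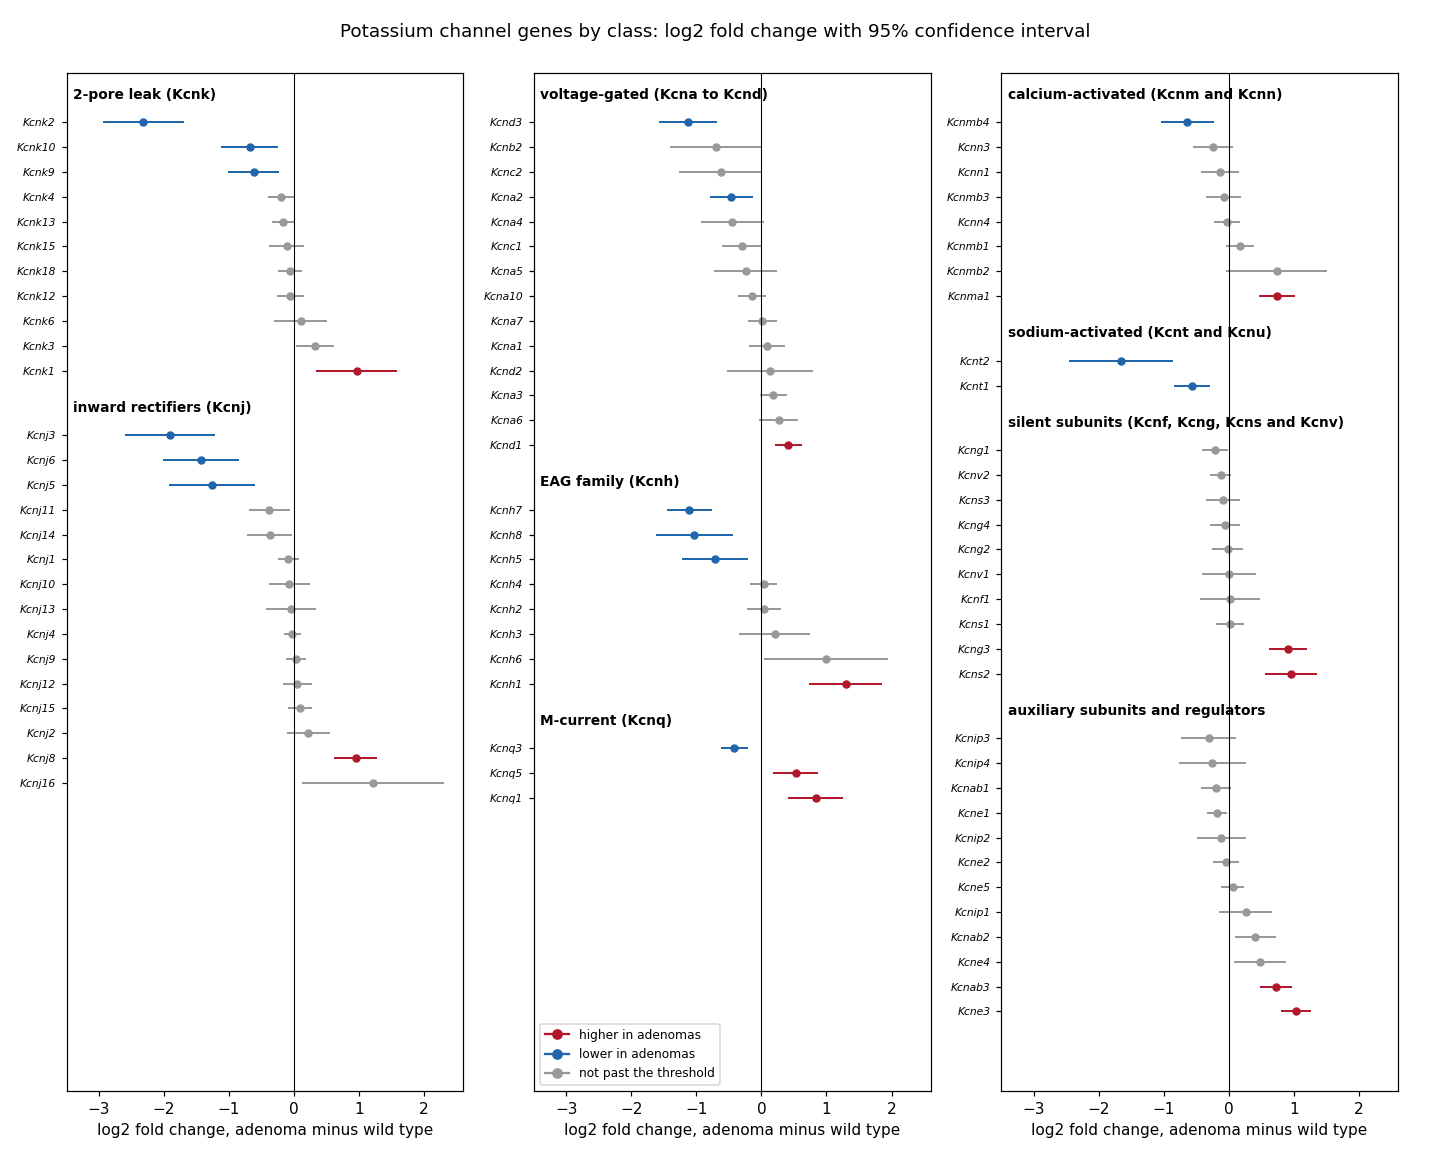
Log2 fold change of adenomas minus wild-type pituitaries (x axis) for each of the 83 potassium channel genes, grouped by channel class, with points for the estimate and bars for the 95% confidence interval of limma. The lowered genes (blue) reach -2.32 for Kcnk2, and the raised genes (red) reach 1.29 for Kcnh1.

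The 2-pore channels (Kcnk genes) carry the leak current that holds the membrane near the potassium potential. Of 11 measured, 3 fell and 1 rose. Kcnk2 encodes TREK-1, a leak channel opened by stretch and by fatty acids. Its level was 5.58 at the lowest, 6.29 at the median and 6.46 at the highest of the 9 adenomas, against 7.82, 9.05, 9.62, 8.74 and 7.37 in wild-type pituitaries 1 to 5. The groups were separated by nearly a full log2 unit. The adenoma values, 5 of them averages of lesions, were much more alike (SD 0.27) than the wild-type pituitaries (SD 0.91). The log2 fold change of Kcnk2 was -2.32 ± 0.29 (SE; 4.99-fold lower in adenomas, adjusted p = 1.84e-04). By the methods' t-test with unequal variances it missed the threshold (adjusted p = 0.0552).

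Kcnk10 encodes TREK-2, the nearest relative of TREK-1, and fell by 0.68 (adjusted p = 0.0288), but the call was lost on leaving out wild-type pituitary 2, 3 or 4 or adenoma 3 (adjusted p up to 0.0642), with lesions as separate samples and the rat as a random block, and by the methods' t-test. Kcnk9, which encodes the acid-sensitive leak channel TASK-3, fell by 0.62 (adjusted p = 0.0250), a call that did not survive leaving out wild-type pituitary 3 or 4 (up to 0.0854). Kcnk10 and Kcnk9 were both dim in both groups. The related leak channel genes Kcnk4 (TRAAK) and Kcnk3 (TASK-1) did not pass, with log2 fold changes of -0.20 and 0.32. Kcnk1, which encodes TWIK-1, went the other way. Its adenoma values ran from 9.15 through a median of 9.61 to 10.44, against 9.76, 8.55, 8.02, 7.93 and 9.38 in wild-type pituitaries 1 to 5. Only 4 of 9 adenomas lay above every wild-type value, and the log2 fold change of 0.96 ± 0.29 (adjusted p = 0.0317) lost its call on leaving out wild-type pituitary 2, 3 or 4 or adenoma 1 or 7 (up to 0.106).

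The inward rectifiers (Kcnj genes) pass potassium more easily into than out of the cell. A group of 4 of them, Kcnj3, Kcnj5, Kcnj6 and Kcnj9, encodes the GIRK channels, which are opened directly by G protein beta-gamma subunits once a receptor of the inhibitory class, such as the dopamine D2 or a somatostatin receptor, is active. Of these, 3 fell and Kcnj9 did not pass. Kcnj3 encodes the subunit GIRK1, which forms channels only together with another GIRK subunit. It had a lowest value of 7.23, a median of 7.83 and a highest of 9.16 in adenomas, against 9.60, 9.37, 10.46, 10.18 and 9.91 in wild-type pituitaries 1 to 5. No adenoma reached the wild-type range, and the log2 fold change was -1.91 ± 0.32 (3.76-fold lower, adjusted p = 1.15e-03).

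Kcnj6 encodes GIRK2, and its adenoma values were 6.03 at the lowest, 6.61 at the median and 7.69 at the highest, against 7.90, 8.45, 8.77, 8.52 and 7.44 in wild-type pituitaries 1 to 5. The 2 adenomas inside the wild-type range were adenomas 4 and 6, with 7.51 and 7.69. The log2 fold change of Kcnj6 was -1.43 ± 0.27 (adjusted p = 2.47e-03). For Kcnj5, which encodes GIRK4, adenomas had 6.01, 7.44 and 7.92 as lowest, median and highest values, and wild-type pituitaries 1 to 5 had 8.15, 9.05, 8.74, 8.48 and 7.75. Adenoma 4 alone exceeded the lowest wild-type value, and the log2 fold change was -1.26 ± 0.30 (adjusted p = 0.0108). Kcnj9, which encodes GIRK3, was low in both groups, 5.80 ± 0.10 in adenomas and 5.77 ± 0.06 in wild type, with a 95% interval for the difference of -0.11 to 0.17. The fall of 4 of 6 PIT-1 lineage genes and 3 of 4 corticotroph and melanotroph genes stands beside these values, and its part in them was not tested.

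Kcnj5 and Kcnj6 have promoters in the RefSeq-based table used here (build GRCr8), which matched 58 of the 83 members and 18 of the 26 that passed. They are shown because these 2 subunits of 1 channel family fell together, and that of Kcnh1 because it was the only one of the 18 with the letters AGGTCA, the core of the site bound by the gonadotroph factor SF-1. Each run is the 250 bases before the start of the gene, 5′ to 3′ on its own strand, and capitals mark AGGTCA read on the opposite strand. Kcnj5 lies on the minus strand at chr8:39011097-39011346, Kcnj6 on the minus strand at chr11:47778349-47778598 and Kcnh1 on the plus strand at chr13:106252966-106253215.
Kcnj5: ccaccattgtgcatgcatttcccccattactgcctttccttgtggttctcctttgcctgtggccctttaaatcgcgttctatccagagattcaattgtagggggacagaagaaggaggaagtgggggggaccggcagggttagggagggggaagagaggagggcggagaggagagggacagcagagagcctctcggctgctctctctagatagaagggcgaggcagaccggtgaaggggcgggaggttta
Kcnj6: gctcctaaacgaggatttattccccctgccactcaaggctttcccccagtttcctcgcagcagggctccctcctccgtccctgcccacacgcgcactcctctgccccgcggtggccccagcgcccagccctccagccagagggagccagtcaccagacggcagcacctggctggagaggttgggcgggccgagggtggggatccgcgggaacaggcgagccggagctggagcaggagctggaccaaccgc
Kcnh1: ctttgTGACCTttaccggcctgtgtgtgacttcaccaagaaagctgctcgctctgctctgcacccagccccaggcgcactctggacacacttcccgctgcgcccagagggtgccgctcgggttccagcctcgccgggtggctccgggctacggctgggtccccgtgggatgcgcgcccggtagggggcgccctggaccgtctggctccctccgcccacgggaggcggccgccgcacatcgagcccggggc
AGGTCA on either strand was present in 1 of 7 raised and 0 of 11 lowered members, 2 of all 58 members, and 14.1% of all 33469 promoters of this length. The E-boxes CAGCTG (its own reverse) and CAGATG (either strand) were each found in 1 of the 7 raised members, Kcnq5 and Kcnab3, and in 0 of the 11 lowered ones. Over all 58 members CAGCTG was in 14 (24.1%) and CAGATG in 1 (1.72%), against 12.0% and 14.0% of all promoters. A match is only a run of letters. The GC content was 57.2% for Kcnj5, 69.2% for Kcnj6 and 71.6% for Kcnh1, and its median over all promoters was 51.2%.

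The receptors and G protein genes upstream of the GIRK channels passed about as often as genes did in general (background 21.7%). Of 24 measured, 3 were higher and 2 lower in adenomas, with a median log2 fold change of -0.03. Sstr5, a somatostatin receptor, was lower in all 9 adenomas, which had 6.21 at the lowest, 6.58 at the median and 6.64 at the highest, than in wild-type pituitaries 1 to 5, which had 6.78, 7.05, 6.91, 7.42 and 7.10 (log2 fold change -0.51, adjusted p = 3.04e-03). Gng3, a G protein gamma subunit, fell by 0.93 (adjusted p = 8.02e-03). Rgs4, which speeds the shut-off of inhibitory G proteins, rose by 0.96 (adjusted p = 0.0188), and the beta subunits Gnb4 and Gnb5 rose by 0.38 and 0.33 (adjusted p = 0.0107 and 0.0254). The dopamine receptor Drd2 had a log2 fold change of -0.88 and did not pass (adjusted p = 0.0609). Its probe set read 8.02 to 10.03 in adenomas and 9.17 to 10.28 in wild-type pituitaries.

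**Figure D2:**
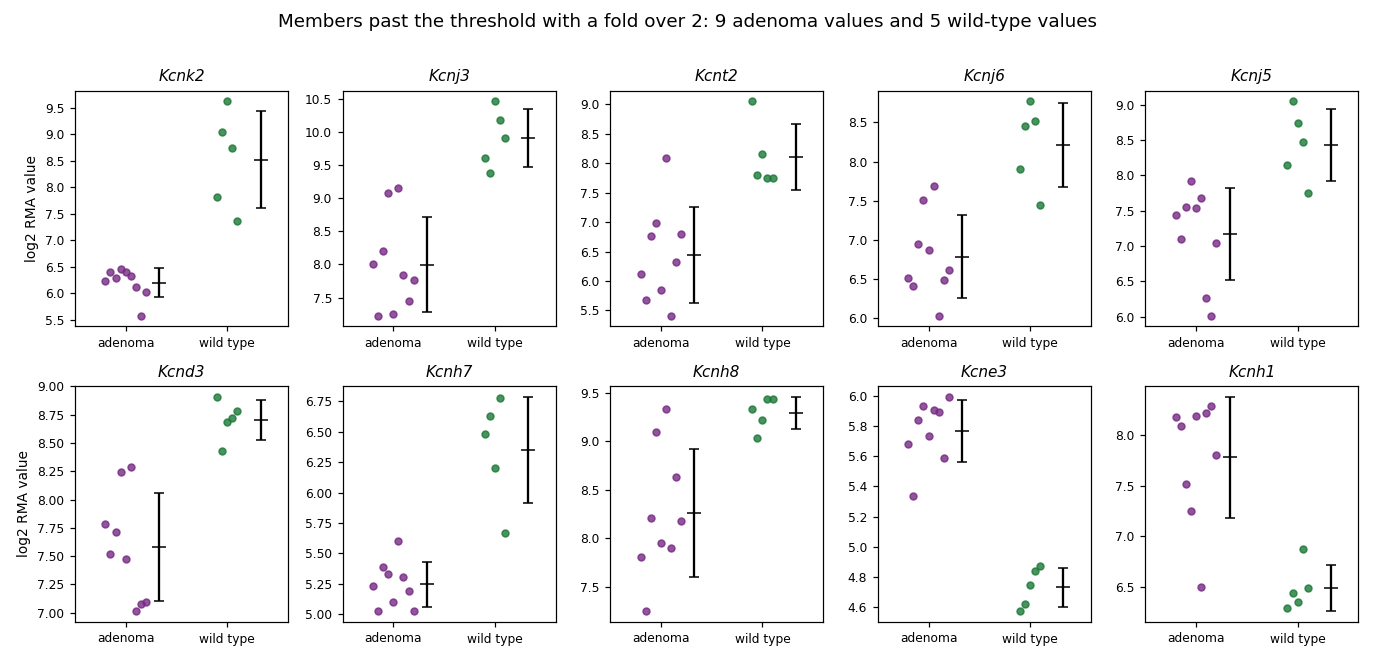
Log2 RMA values of the 10 potassium channel genes that passed the threshold with a fold over 2, with 1 point for each of the 9 adenomas (left) and 5 wild-type pituitaries (right) and the mean with its SD beside them. The groups are apart for Kcnk2, Kcnj3, Kcnd3, Kcnh7 and Kcne3, and 1 or 2 adenomas fall inside the wild-type range for Kcnt2, Kcnj6, Kcnj5, Kcnh8 and Kcnh1.

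ATP-sensitive potassium channels close when a cell is rich in ATP, and are built from Kcnj8 or Kcnj11 as the pore and Abcc9 or Abcc8 as the sulphonylurea receptor. Kcnj8 and Abcc9 make the form of vascular muscle and pericytes, and Kcnj11 and Abcc8 that of insulin-secreting and many neuroendocrine cells. Both genes of the vascular pair rose. Kcnj8 had 7.19, 7.50 and 7.73 as lowest, median and highest adenoma values, against 7.25, 6.43, 6.58, 6.17 and 6.38 in wild-type pituitaries 1 to 5 (log2 fold change 0.95 ± 0.15, adjusted p = 7.17e-04). Wild-type pituitary 1 alone overlapped the adenomas. Abcc9 ranged from 7.45 to 8.20 in adenomas, against 7.58, 6.74, 6.67, 6.55 and 7.15 in wild-type pituitaries 1 to 5 (log2 fold change 0.97, adjusted p = 8.57e-04), and wild-type pituitary 1 was again the highest of its group. The rise of 5 of 6 pericyte genes stands beside these values, and its part in them was not tested.

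Of the other pair, Abcc8 fell and Kcnj11 did not pass. Abcc8 was 7.08 to 7.89 in adenomas and 7.72 to 8.37 in wild-type pituitaries, with 7 of 9 adenomas below every wild-type value (log2 fold change -0.60, adjusted p = 9.13e-03). Kcnj11 was 6.28 ± 0.22 in adenomas and 6.66 ± 0.35 in wild type (log2 fold change -0.38, adjusted p = 0.0773). The remaining inward rectifiers did not pass. The widest of them was Kcnj16, whose product joins Kcnj10 in kidney and glia. Its adenoma values spread from 4.49 through a median of 6.04 to 8.02, against 5.26, 5.22, 5.35, 4.29 and 4.68 in wild-type pituitaries 1 to 5. Adenomas 2, 5 and 1 were the highest, with 8.02, 7.67 and 6.99, and adenomas 4, 6 and 8 lay within the wild-type range, so that a log2 fold change of 1.21 came with an adjusted p of 0.110.

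Among the voltage-gated channels of the Kcna to Kcnd families, 2 of 14 fell and 1 rose. Kcnd genes encode the pores of the fast, transient A-type current, which delays the next action potential. Kcnd3 had 7.01 at the lowest, 7.51 at the median and 8.28 at the highest of the adenomas, against 8.91, 8.43, 8.69, 8.72 and 8.78 in wild-type pituitaries 1 to 5. The groups did not overlap, and the log2 fold change was -1.13 ± 0.20 (adjusted p = 1.96e-03). Kcnd1, of the same family but dim in both groups, rose by 0.41 (adjusted p = 6.49e-03), with 8 of 9 adenomas above every wild-type value. Kcnd2 did not pass (log2 fold change 0.13, 95% interval -0.52 to 0.77).

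The A-type pores are joined in the membrane by the dipeptidyl-peptidase-like proteins Dpp6 and Dpp10, which speed their gating. Dpp10 ranged from 5.57 through 7.32 to 8.31 in adenomas (lowest, median and highest), against 4.84, 5.14, 5.47, 4.76 and 4.72 in wild-type pituitaries 1 to 5. Every adenoma was above every wild-type pituitary, and with a log2 fold change of 2.07 (4.20-fold, adjusted p = 3.60e-03) Dpp10 rose more than any Kcn gene that passed. Dpp6 did not pass (log2 fold change 0.05), nor did the cytoplasmic A-type subunits Kcnip1 to Kcnip4 (from -0.31 to 0.26). Kcna2, a delayed rectifier of axons, fell by 0.47 (adjusted p = 0.0417), and 8 of the 14 single-sample omissions took the call away, namely wild-type pituitaries 3, 4 and 5 and adenomas 1, 2, 3, 5 and 8 (adjusted p up to 0.115). The other 11 did not pass, with log2 fold changes from -0.70 for Kcnb2 to 0.27 for Kcna6.

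**Figure D3:**
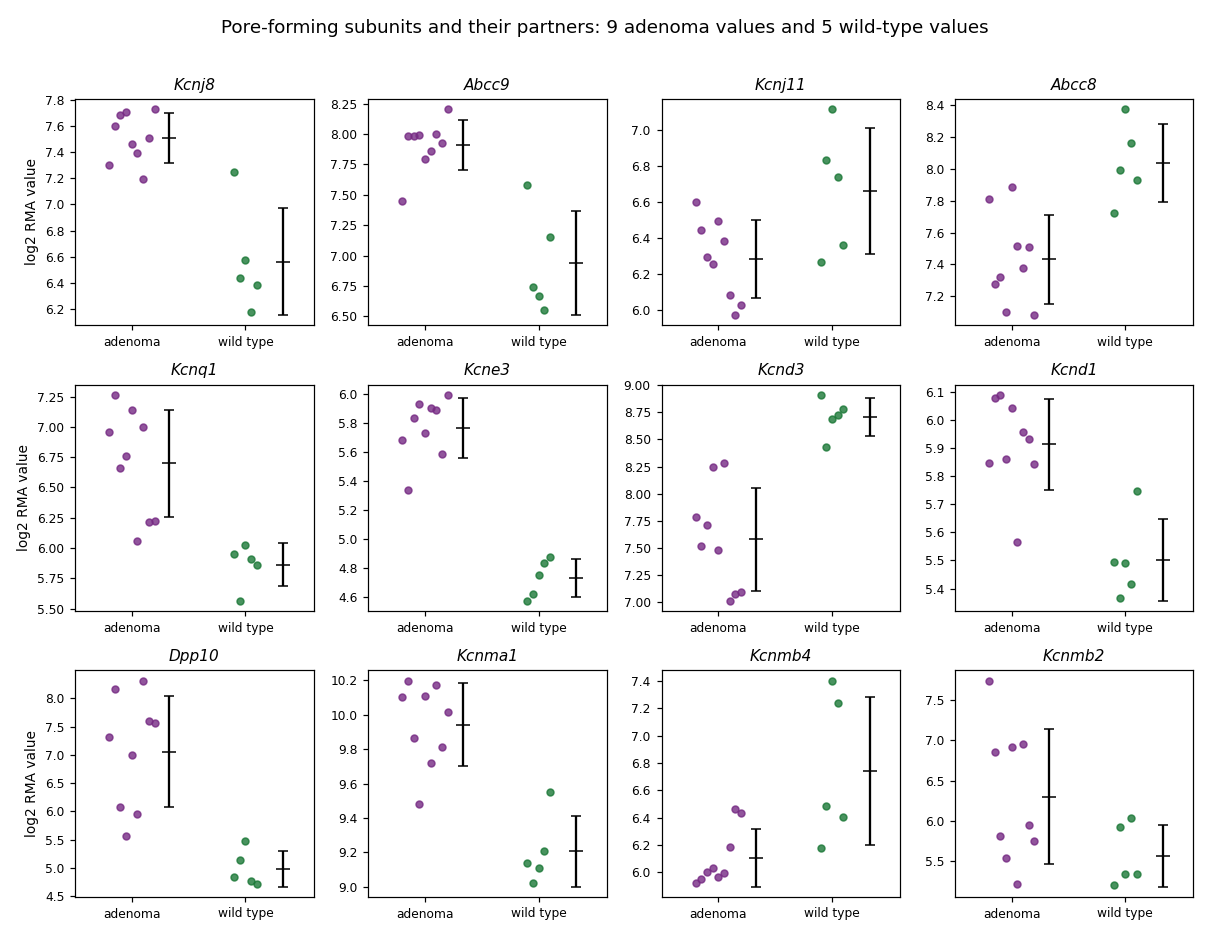
Log2 RMA values of pore-forming subunits and of genes whose products join them, with 1 point for each of the 9 adenomas (left) and 5 wild-type pituitaries (right) and the mean with its SD; vertical axes differ between panels. Kcnj8 and Abcc9 are higher in adenomas, Abcc8 is lower, and Dpp10 is higher where Kcnd3 is lower.

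The Kcnh genes encode 3 subfamilies, EAG (Kcnh1 and Kcnh5), ERG (Kcnh2, Kcnh6 and Kcnh7) and ELK (Kcnh3, Kcnh4 and Kcnh8). The ERG current is known for holding lactotrophs at rest. Kcnh1 rose most of all members that passed. Its values were 6.49, 8.09 and 8.29 at the lowest, median and highest of the adenomas, against 6.29, 6.43, 6.35, 6.88 and 6.49 in wild-type pituitaries 1 to 5. All adenomas but adenoma 6 lay above the wild-type range (log2 fold change 1.29 ± 0.26, 2.45-fold, adjusted p = 3.50e-03). Its partner in the EAG subfamily, Kcnh5, was dim in both groups and fell by 0.71 (adjusted p = 0.0432). The call was removed by 10 of the 14 single-sample omissions (wild-type pituitaries 2, 4 and 5 and adenomas 1, 2, 3, 5, 7, 8 and 9, adjusted p up to 0.128).

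Kcnh7 of the ERG subfamily was dim in both groups, with 5.02, 5.23 and 5.60 as lowest, median and highest adenoma values, against 6.48, 6.63, 6.20, 6.77 and 5.67 in wild-type pituitaries 1 to 5. No adenoma reached the wild-type range (log2 fold change -1.11 ± 0.15, adjusted p = 3.50e-04). The other ERG genes did not pass. Kcnh2 had a log2 fold change of 0.04 (95% interval -0.20 to 0.28), and Kcnh6, with values from 5.33 to 8.54 in adenomas and 4.99 to 6.00 in wild-type pituitaries, one of 1.00 (adjusted p = 0.131). Kcnh8 of the ELK subfamily had 7.25, 8.18 and 9.33 as lowest, median and highest adenoma values, against 9.34, 9.04, 9.22, 9.44 and 9.44 in wild-type pituitaries 1 to 5. Adenomas 4 and 6 lay inside the wild-type range. The log2 fold change of Kcnh8 was -1.03 ± 0.27 (adjusted p = 0.0181), and the call was lost, barely, without wild-type pituitary 4 (adjusted p = 0.0507).

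Kcnq channels open slowly and at voltages near rest, and Kcnq3 and Kcnq5 products carry the M-current that acetylcholine and peptides switch off. All 3 measured genes passed, in opposite directions. Kcnq1, an epithelial and cardiac channel, had 6.06, 6.76 and 7.26 as lowest, median and highest adenoma values, against 5.95, 5.56, 6.03, 5.91 and 5.86 in wild-type pituitaries 1 to 5 (log2 fold change 0.83 ± 0.19, adjusted p = 8.15e-03). The groups did not overlap, though adenoma 6, with 6.06, came close to wild-type pituitary 3, with 6.03. Kcnq5 was dim and rose by 0.52 (adjusted p = 0.0288), and did not pass when wild-type pituitary 3 or 5 was omitted (adjusted p up to 0.0753). Kcnq3 was lower in all 9 adenomas, by 0.42 (adjusted p = 5.74e-03).

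Kcne3 encodes a small single-span subunit that keeps Kcnq1 channels open in secretory epithelia. It was dim in both groups, but its adjusted p was the lowest of the 26. Adenomas had 5.34, 5.84 and 5.99 as lowest, median and highest values, and wild-type pituitaries 1 to 5 had 4.58, 4.62, 4.75, 4.84 and 4.87. The lowest adenoma lay well above the highest wild-type pituitary, and the log2 fold change was 1.03 ± 0.10 (2.05-fold, adjusted p = 3.82e-05).

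Kcnab3, a cytoplasmic beta subunit of the Kcna channels, was higher in all 9 adenomas, 5.56 ± 0.13 against 4.83 ± 0.27 in wild type (log2 fold change 0.72, adjusted p = 4.97e-04), and was dim in both groups. Kcnab2 and Kcne4 had log2 fold changes of 0.41 and 0.48 and did not pass (adjusted p = 0.0553 and 0.0777). Of the 12 auxiliary subunits 2 rose, 0 fell and 10 did not pass.

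Silent subunits form no channel alone and change the gating of the Kcnb channels they join. Of 10, 2 rose and 0 fell. Kcns2 had 6.78, 7.30 and 8.05 as lowest, median and highest adenoma values, against 6.43, 6.57, 6.14, 6.47 and 6.26 in wild-type pituitaries 1 to 5 (log2 fold change 0.95 ± 0.18, adjusted p = 2.52e-03). For Kcng3 the adenoma values were 6.43, 7.05 and 7.29, against 5.88, 5.98, 6.26, 6.12 and 6.19 in wild-type pituitaries 1 to 5 (log2 fold change 0.90 ± 0.13, adjusted p = 4.69e-04). Neither gene overlapped between the groups once lesions were averaged. Single lesions did: of the 3 lesions of adenoma 3, 1 read 6.05 for Kcng3 and another read 6.54 for Kcns2, each inside the wild-type range. The 8 silent subunits that did not pass lay between -0.21 and 0.01. Kcnb2, the only gene of the channels they join that was measured here, had a log2 fold change of -0.70 (adjusted p = 0.150).

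Calcium-activated channels link calcium entry to repolarisation, and the large-conductance channel is one pore, Kcnma1, dressed by beta subunits encoded by Kcnmb genes. Kcnma1 rose and its neuronal subunit gene Kcnmb4 fell. Kcnma1 had 9.48, 10.01 and 10.20 as lowest, median and highest adenoma values, against 9.14, 9.02, 9.11, 9.20 and 9.55 in wild-type pituitaries 1 to 5 (log2 fold change 0.74 ± 0.12, adjusted p = 1.18e-03). Adenoma 4 was the only one inside the wild-type range. Kcnmb4 had 5.92, 6.00 and 6.46 as lowest, median and highest adenoma values, and 6.18, 6.49, 7.40, 7.24 and 6.40 in wild-type pituitaries 1 to 5. The wild-type values were uneven, and the fall of 0.64 (adjusted p = 0.0263) no longer passed when wild-type pituitary 3 or 4 was omitted (up to 0.0902). Kcnmb2, whose product makes the channel inactivate, did not pass (log2 fold change 0.74, adjusted p = 0.170). Neither did the small-conductance genes Kcnn1 and Kcnn3, nor Kcnn4.

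Kcnt1 and Kcnt2 encode the sodium-activated channels Slack and Slick, and both fell. Kcnt2 had 5.41, 6.32 and 8.09 as lowest, median and highest adenoma values, against 9.05, 7.80, 8.16, 7.74 and 7.75 in wild-type pituitaries 1 to 5 (log2 fold change -1.66 ± 0.37, 3.15-fold lower, adjusted p = 6.96e-03). Adenoma 6, at 8.09, lay inside the wild-type range, and the other 8 below it. Kcnt1 was 5.94 ± 0.09 in adenomas and 6.51 ± 0.37 in wild type (log2 fold change -0.57, adjusted p = 5.32e-03). The sodium leak channel gene Nalcn, which depolarises the cell, was lower by 0.58 (adjusted p = 0.0103), and the pacemaker channel gene Hcn2 was higher in all 9 adenomas, 8.17 ± 0.14 against 7.73 ± 0.05 in wild type (log2 fold change 0.44, adjusted p = 1.27e-03). In all, 3 of 16 measured partner genes rose (Dpp10, Abcc9 and Hcn2) and 2 fell (Abcc8 and Nalcn). Among all genes with 1 symbol, 12.1% rose and 9.7% fell.

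The 9 adenomas were not alike in these genes. Adenoma 6, from a female of 8 months, was the nearest to wild type in 8 of the 15 lowered and 5 of the 11 raised members. Adenoma 4, from a female of 7 months, was the nearest in 3 and 2 more, but the farthest in 1 lowered and 1 raised member. Adenoma 8, from a female of 12 months, was the nearest in 3 lowered members, and adenoma 2, from a male of 10 months, in 2 raised ones. Adenomas 4, 6, 7 and 8 are each 1 array, and the others are averages of lesions, which are less extreme. Adenomas 4 and 6 came from the 2 youngest mutants, and the others were 10 to 12 months old. For Kcnj3 the youngest 2 read 9.08 and 9.16, the 7 older adenomas 7.23 to 8.20 and the wild-type pituitaries 9.37 to 10.46. For Kcnd3 the youngest 2 read 8.24 and 8.28, the older adenomas 7.01 to 7.78 and the wild-type pituitaries 8.43 to 8.91. Kcnh1 had the opposite order, with 6.49 and 7.25 in the youngest 2, 7.51 to 8.29 in the older adenomas and 6.29 to 6.88 in wild type. Kcnk2 was different again, since the youngest 2 read 6.33 and 6.46, the older adenomas 5.58 to 6.40 and wild type 7.37 to 9.62. Both of the youngest thus lay far below wild type for Kcnk2 but close to it for Kcnj3 and Kcnd3.

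The slope on age over the 9 adenomas, fitted across all probe sets with limma, passed the adjusted threshold for 0 members, and for 0.00342% of all probe sets. At an unadjusted p under 0.05 there were 16 members, or 19.3%, where 11.8% of all probe sets had one. The steepest of the lowered genes were Kcnj3 at -0.32 per month (adjusted p = 0.160), Kcnt2 at -0.28 (0.343), Kcnj5 at -0.24 (0.315), Kcnj6 at -0.23 (0.175) and Kcnd3 at -0.23 (0.132). Kcnh1 had a slope of 0.26 (adjusted p = 0.177) and Kcnk1 one of 0.18 (0.160), while that of Kcnk2 was -0.08 (0.454). With the 2 adenomas of 7 and 8 months alone set against wild type, all 26 members kept their direction, but only 1 rise, that of Kcne3, and 0 falls passed. These samples are part of the main fit that chose the 26, so the shared direction is no separate support. For Kcnh5 and Kcnh8 the difference was only -0.02 and -0.08. Over all 29214 probe sets, 119 rises and 14 falls passed in that comparison. Among the 83 members, 9 positive and 8 negative differences had an unadjusted p under 0.05 in it. The share of all probe sets at that unadjusted p is not given here.

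**Figure D4:**
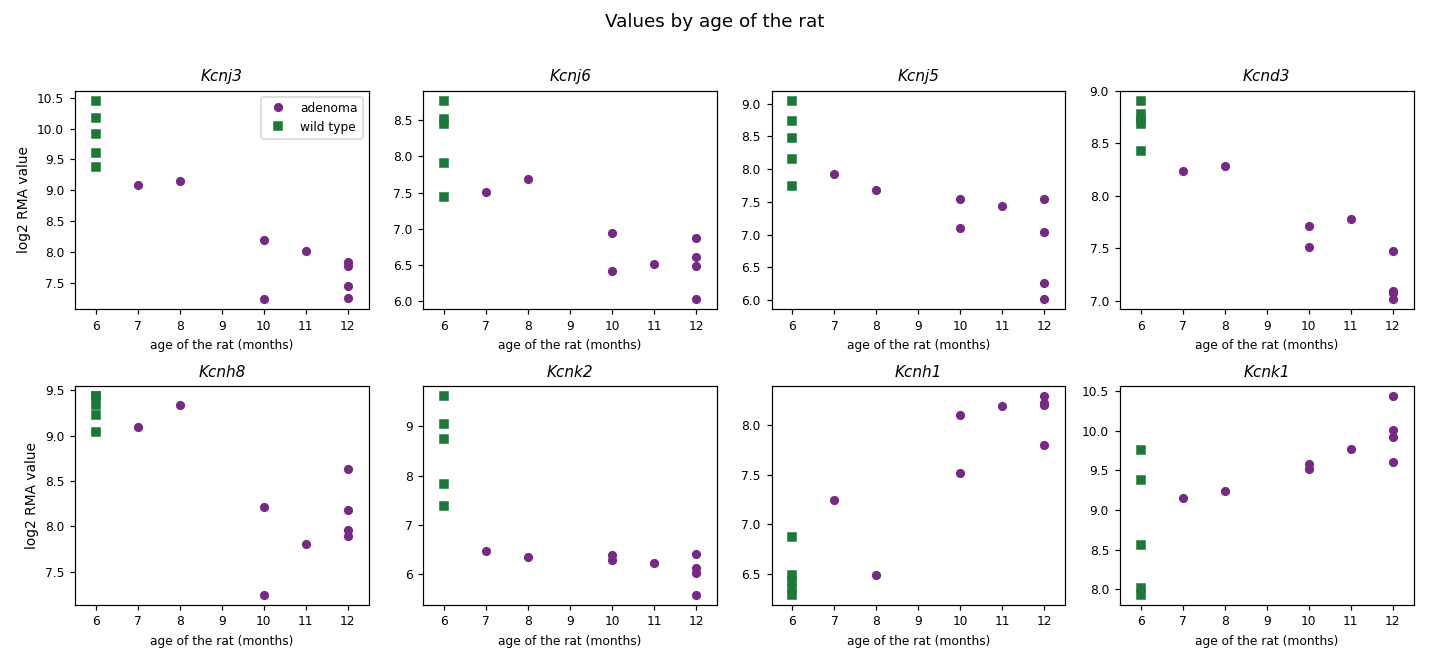
Log2 RMA values (y axis) of 8 potassium channel genes by the age of the rat in months (x axis), for 9 adenomas (circles) and 5 wild-type pituitaries of 6 months (squares). The adenomas of 7 and 8 months lie near the wild-type values for Kcnj3, Kcnd3 and Kcnh8 and far below them for Kcnk2.

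The difference between adenomas and wild type was also compared between the sexes. Its interaction with sex passed for 0 members and for 0% of all probe sets, with 11 members (13.3%) and 6.78% of all probe sets at an unadjusted p under 0.05. The widest by p was Kcnk2, with a log2 fold change of -1.47 in females and -2.77 in males (adjusted p = 0.377). Its adenoma values hardly differed by sex, from 5.58 to 6.46 in females and from 6.29 to 6.40 in males, while the wild-type pituitaries read 7.82 and 7.37 in females and 9.05, 9.62 and 8.74 in males. Kcnk1 had the mirror pattern, 0.18 in females and 1.40 in males (adjusted p = 0.576), with wild-type values of 9.76 and 9.38 in females and 8.55, 8.02 and 7.93 in males. Kcnmb4 had -0.12 in females and -1.07 in males (adjusted p = 0.541). Each of these rests on 2 wild-type females.

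The spread between adenomas was of the same order as that between wild-type pituitaries, with a median SD over the members of 0.242 in adenomas and 0.238 in wild type. It was larger in adenomas for 43 of the 83. The 2 spreads are not like measures, because 5 of the 9 adenoma values are means of 2 or 3 lesions, which narrows their spread. Each wild-type value is 1 array. Lesions of 1 rat also differed. The median over members of the largest range within 1 rat (5 rats with more than 1 lesion) was 0.496. Within adenoma 3, an average of 3 lesions, the range was 2.06 for Kcnf1, 1.89 for Kcnj16, 1.55 for Kcnd2, 1.55 for Kcnmb2 and 1.44 for Kcnt2, and the 3 lesions read 7.55, 6.05 and 6.87 for Kcng3. For Kcnj16 and Kcnt2 the 9 averaged adenomas spanned more than this (3.53 and 2.68), and for Kcnf1, Kcnd2 and Kcng3 they spanned less than the lesions did (1.43, 1.48 and 0.863).

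The sample numbers in the labels begin with 08 (5 adenomas, 2 wild-type pituitaries) or 09 (4 and 3), with no meaning given. Within each set, all 26 members that passed kept their direction. They were chosen by their difference over both sets together, so this is no separate support for them. Over all 83 members, 6 rose and 3 fell with 08 alone, where 363 and 345 of all 29214 probe sets did. With 09 alone 7 rose and 9 fell, where 1984 and 1920 of all probe sets did. Kcne4 and Kcna5, which are not among the 26, were among those of 09. The log2 fold change of Kcnk2 was -2.08 and -2.57 in these sets, that of Kcnj3 -1.54 and -2.13 and that of Kcnh1 1.48 and 1.13. The sets differed most for Kcnk1, with 0.37 in 08 and 1.46 in 09, Kcnt2, with -2.15 and -1.23, and Kcnq1, with 1.20 and 0.44. The 3 adenomas from males are all in 08 and the 4 of 09 are all from females. Adenomas 1 and 4 of 08 are also from females, and each prefix has wild types of both sexes. Prefix and sex are thus partly tied, and their parts were not separated here.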

How the data were processed

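Total RNA of macrodissected pituitary tissue was run on 21 arrays. The authors deposited log2 values made by RMA (background correction, sketch-quantile normalization, median polish) in Affymetrix Expression Console, whose version is not given in the sources used here. Quantile normalization removes any shift shared by most genes, and array medians lay between 6.36 and 6.53. Precision is set by how many rats each group has, read here as 9 and 5, and not by the number of arrays.

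Of 29214 probe sets, 15310 had 1 symbol, 323 several and 13581 none in the platform annotation, and 1 with several symbols that include Kcn genes was not named. Lesions of 1 sample number were averaged, and limma 3.58.1 (R 4.3.3; lmFit, eBayes) was fitted to 9 adenoma and 5 wild-type values with Benjamini-Hochberg adjustment over all probe sets at 0.05. The fit was tested on simulated data. Dim means both group means below 6.43, the median over all probe sets. Summed marker levels are log2 of summed linear values. All members that passed are named, with sample values for those over 2-fold and the most changed of each class. The members and lists were chosen with earlier results of these data known. Alternatives covered lesions, the methods' t-test, sex, age, sample-number prefix, scaling, filtering, weights, probe-set choice and thresholds. Some listed genes, such as Cntnap2, Gng2, Nr5a1, Foxl2, Crhr1 and Pax7, were not analysed here.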

Additional observations from a re-analysis of the deposited data

Results flagged for a closer look

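Among the 26 members that passed, 3 of 52 groups held a sample that stood apart from its group by Dixon's test, and chance alone gives about 1 in 20. Kcnd1 read 5.57 in adenoma 6, below the 5.85 to 6.09 of the other adenomas and inside the wild-type range. Kcnk2 read 5.58 in adenoma 8, below the 6.01 to 6.46 of the other adenomas. Kcnt1 read 5.72 in adenoma 1, below the 5.91 to 6.05 of the other adenomas. All 3 genes kept their call when that adenoma was left out.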

How the results depend on the processing

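No member that passed changed direction under any alternative, though all alternatives reuse the arrays by which the members were chosen. The counts of 11 higher and 15 lower members stayed within 1.5 times under most settings. The exceptions were the sample numbers of prefix 08 alone (6 and 3) or 09 alone (7 and 9), the adenomas of 7 or 8 months alone (1 and 0), the t-test of the methods with unequal variances (9 and 7; with equal variances 9 and 12), an adjusted p under 0.01 (9 and 8) and a fold over 2 (2 and 8). Either prefix alone, the youngest adenomas and the t-test with unequal variances also passed fewer probe sets over the whole array than the main fit. Leaving out 1 sample in turn gave 9 to 13 higher and 9 to 18 lower, the 9 lower without wild-type pituitary 4. Of the 26 members, 18 passed with every sample left out, and Kcne3 alone also under all 16 other settings that tested it (the filter on dim probe sets removed it). With unequal variances Kcnk2, Kcnj8, Kcnq3 and Kcnt1 did not pass, which otherwise lost the call only within a prefix or in the youngest adenomas. Kcna2 lost its call when arrays were centred on the median, Kcnk10 when they were quantile-normalized again, and Kcnh5 under both. Kcnh5 also lost it with sex as a covariate, Kcna2, Kcnh5 and Kcnq5 with array weights, and Kcna2, Kcnh5, Kcnk1, Kcnk10, Kcnmb4 and Kcnq5 by the methods' t-test with equal variances. The replicate numbers of the labels were not taken to pair the samples: deviations of same-numbered samples correlated at -0.05 to 0.20, 0 of 5 adenoma arrays correlated best with the wild type of its own number, and 3 of 5 wild types did with the adenoma of theirs. A fit with the number as a block gave 12 higher and 15 lower, without Kcna2, Kcnk1 and Kcnq5 and with Kcna4, Kcnab2, Kcnj16 and Kcnmb2 in addition. The sex interaction and the age slope passed for 0 members under all alternatives run. Precision is limited by 5 wild-type pituitaries, and for dim probe sets by signal near background.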
